A study of Mus musculus with 16 samples.

Results

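The 10 genes described here encode proteins of the elastic fiber and the fibulin family: Efemp1, Efemp2, Fbln1, Fbln2, Fbln5, Fbn1, Eln, Emilin1, Mfap4 and Mfap5. The list was set by gene name, with earlier results of these data known, out of 21959 genes listed for each of 16 mice, and all 10 passed the filter on low counts. All mice were male wild-type C57BL/6 animals aged 6 weeks that received cells of MC38, a mouse colon carcinoma line, by injection into the spleen so that tumors grew in the liver. RNA was then taken from the tumor tissue, labelled as liver metastases. The 4 groups of 4 mice were a PBS control, SB525334 (20 mg/kg by daily gavage in CMC-Na, an inhibitor of the type I TGF-β receptor ALK5), KN046 (10 mg/kg into the peritoneum, a bispecific antibody against PD-L1 and CTLA-4) and both agents together, called the combination. The groups therefore share a single implanted cell line and a single sex, and the labels name no separate vehicle for the gavage in the control.

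Elastic fibers give tissues their recoil. Cells secrete tropoelastin, the product of Eln, which is laid onto a scaffold of fibrillin microfibrils and cross-linked there by lysyl oxidases. The short fibulins bring elastin, lysyl oxidase and microfibrils together, the long fibulins bind basement membrane and elastic fibers, and microfibrils also hold the latent TGF-β complexes from which the growth factor is released. In liver, such fibers are made by fibroblasts, stellate cells and vascular smooth muscle, and they accumulate in scar and tumor stroma.

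Sequence upstream of the RefSeq start is shown for 4 fibulin genes, because SB525334 acts on a receptor that signals through SMAD factors. Of the 10 genes, 7 were in the RefSeq promoter table (GRCm38.p6), with 11 entries, and Eln, Mfap4 and Mfap5 were not. Of the 11 entries, 4 are shown, those whose window overlaps no annotated exon. Each sequence holds the first 195 of the 250 bases before the start, is written 5′ to 3′ on the gene's strand and matched GRCm39 once, at the position given. Capitals mark matches, on either strand, to the GC box GGGCGG, the TATA box TATAAA, the SMAD core CAGAC and the AP-1 site TGACTCA.
Efemp1, chr11:28802955-28803149, + strand: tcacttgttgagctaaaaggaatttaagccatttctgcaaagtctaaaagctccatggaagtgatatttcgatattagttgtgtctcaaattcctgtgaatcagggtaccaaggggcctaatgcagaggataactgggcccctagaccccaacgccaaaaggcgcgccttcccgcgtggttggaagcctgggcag
Fbln5, chr12:101785434-101785628, - strand: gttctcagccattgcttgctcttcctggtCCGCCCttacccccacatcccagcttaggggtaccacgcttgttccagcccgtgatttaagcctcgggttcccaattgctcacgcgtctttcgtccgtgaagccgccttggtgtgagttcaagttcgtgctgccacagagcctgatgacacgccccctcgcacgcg
Efemp2, chr19:5523724-5523918, + strand: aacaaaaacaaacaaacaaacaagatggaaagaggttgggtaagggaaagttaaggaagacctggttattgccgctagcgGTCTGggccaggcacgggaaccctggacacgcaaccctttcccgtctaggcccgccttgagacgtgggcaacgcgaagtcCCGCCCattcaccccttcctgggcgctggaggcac
Fbln1, chr15:85089900-85090094, + strand: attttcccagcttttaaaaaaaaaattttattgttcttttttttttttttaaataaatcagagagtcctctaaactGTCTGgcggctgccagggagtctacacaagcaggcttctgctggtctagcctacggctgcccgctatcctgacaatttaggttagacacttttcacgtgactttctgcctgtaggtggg
The Efemp1 window, with 48.7% G and C, held none of the 4 motifs. The Fbln5 window (59.5% G and C) held 1 GC box, the Efemp2 window (56.9%) 1 GC box and 1 SMAD core, and the Fbln1 window (41.5%) 1 SMAD core. Among the 7 entries not shown, Emilin1 held 2 SMAD cores, the other Fbln5 entry 1 SMAD core, the other Fbln1 entry 2 SMAD cores, Fbn1 1 GC box, the other Efemp2 entries 1 and 3 GC boxes, and Fbln2 none of the motifs. Over 32512 distinct windows of the same length in the table, 24.0% held a GC box, 8.88% a TATA box, 35.1% a SMAD core and 3.43% an AP-1 site, so the matches are common. A match is a run of letters, not a binding site, and the absence of a match says only that these letters are not in this window.

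Libraries held 18368994 to 23877131 counts each. Tests used raw counts and edgeR's quasi-likelihood fit over all 16 mice and 13968 genes, with Benjamini-Hochberg adjustment, and a gene is called here at an adjusted p under 0.05. Levels are CPM, counts scaled to library size with TMM factors. Nothing states that the samples of a group came from separate litters or experiments, so p-values measure the spread between these samples. Control mice 1 and 2, and 3 and 4, were closer to each other (median chi-square between their counts 1.25 and 0.956) than any of the other 22 pairs within groups (2.82 to 18.7). The labels list them as separate samples and do not say whether each pair came from 1 animal or 2, so control SDs with n = 4 may understate the spread between animals. Cell type markers moved with treatment. The 15 hepatocyte markers summed to 18420 to 22880 CPM per control mouse, 779.6 to 2606 with SB525334, 11220 to 23460 with KN046 and 113.9 to 150.2 with the combination. The keratins Krt8 and Krt18, of the colon carcinoma epithelium list, lay at 54.3 to 111 and 59.5 to 116 CPM in control mice. In combination mice they lay at 0 to 0.883 and 0.0943 to 0.828 CPM, with Krt8 at 0 in 1 mouse. Krt8 medians were 83.8 CPM in the control, 18.7 with SB525334, 69.1 with KN046 and 0.0985 in the combination. Both keratins fell in the groups in which the hepatocyte markers fell, and which cells they came from was not tested. The splenic mesenchyme factor Tlx1 was at 1.20 to 1.56 CPM in the combination and at or below 0.131 in the other 12 mice. Nkx2-5 and Coch, of the same list, were at 0.565 to 1.46 and 0.883 to 8.32 CPM in the combination and at or below 0.0862 and 0.340 elsewhere. Of the 7 genes tested from this list of 9, 4 were called higher and 1 lower in the combination against the control. The list summed to 7.963 to 9.668 CPM in control mice and 5.242 to 24.27 in combination mice, which overlap. The sums were 0.7233 to 1.206 CPM with SB525334 and 2.286 to 5.931 with KN046. The labels name the same tissue for all groups, and whether the combination samples came from the same site as the others was not tested, so every combination value below compares tissues with different marker levels. The summed CPM of the 10 fibroblast markers overlapped between groups, at 7707 to 8413, 7007 to 11020, 6496 to 8825 and 6373 to 11770. Single markers did differ. Of the 10, 3 were called lower and 0 higher in the combination against the control, and 6 had estimates above 0. In bulk tissue, fewer cells of a type and less RNA per cell cannot be told apart.

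By level per exon length (RPKM), the 10 genes spanned 3 orders of magnitude. In control tumors Fbln2 stood at 157.8 ± 8.82 RPKM (SD, n = 4), Fbn1 at 38.24 ± 6.93, Fbln1 at 14.62 ± 2.28 and Efemp2 at 14.0 ± 2.54. Emilin1 followed at 11.33 ± 1.09 RPKM, Eln at 3.816 ± 0.0627 and Mfap4 at 3.105 ± 0.286. Efemp1 at 0.5735 ± 0.0672 RPKM, Fbln5 at 0.5358 ± 0.140 and Mfap5 at 0.153 ± 0.0889 closed the order. Fbln1 and Efemp2, Efemp2 and Emilin1, and Efemp1 and Fbln5 were neighbours whose values overlapped between mice. The first 7 genes kept this order of group means in all 4 groups. Efemp1, ranked 8 in the control, was last with SB525334 and with the combination. Fbln2 and Fbn1 together made up 85.1 to 87.2% of the summed CPM of the 10 genes in control mice and 87.8 to 90.7% in combination mice.

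**Figure D1:**
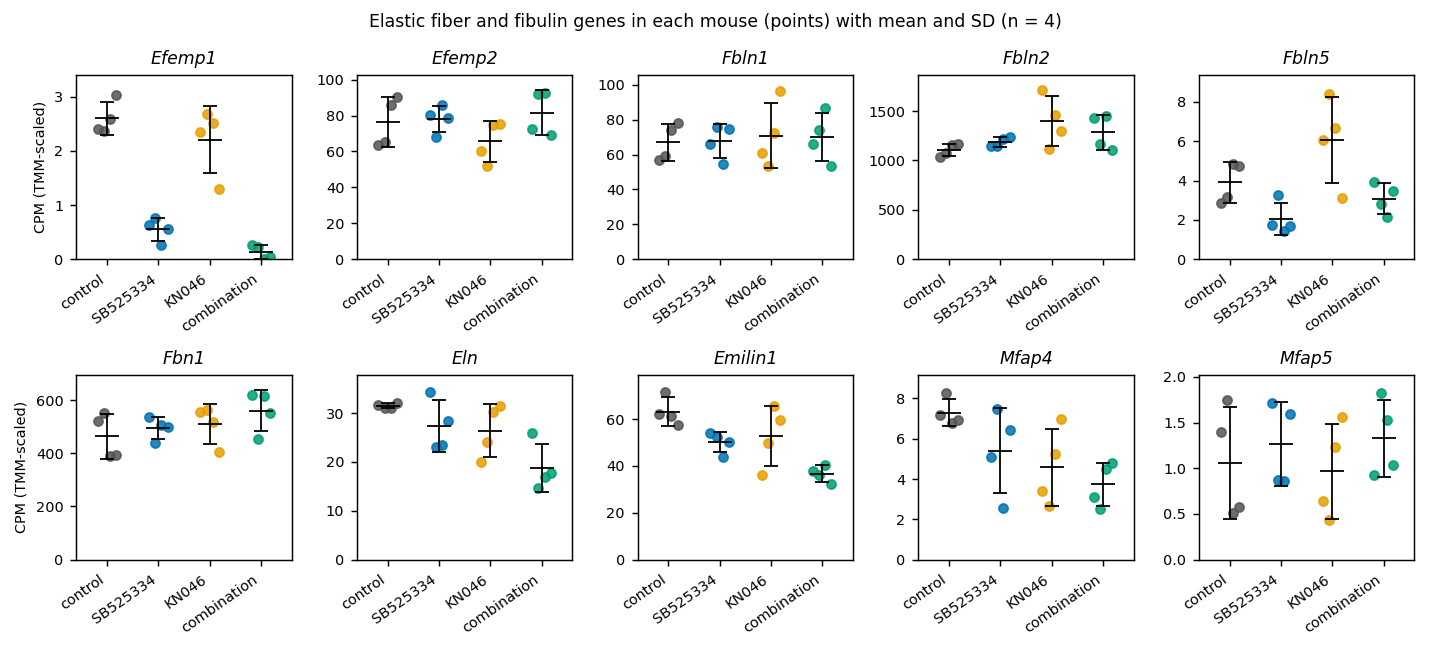
TMM-scaled CPM of each of the 10 genes (1 panel a gene, each with its own linear axis from 0) in each mouse, by treatment group. Points are mice, the bar is the mean and the whiskers are the SD of 4 mice. Efemp1 separates both groups given SB525334 (at or below 0.76 CPM) from the other mice (1.30 CPM and above), and Eln and Emilin1 are lowest in the combination.

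Of the 10 genes, SB525334 alone lowered 1, Efemp1, and raised 0, while 9.22% of all 13968 genes were called lower and 0.394% higher. KN046 alone gave 0 called genes of 10 in edgeR, beside 2.40% of all genes lower and 1.60% higher. At an unadjusted p under 0.05 it had 1, Fbln2, and DESeq2 called 0. The shares over all genes for KN046 were unstable. The counts were 335 lower and 224 higher with all mice, 11 and 10 without KN046 mouse 1, and 0 and 0 in edgeR with the similar control mice merged (1844 genes at an unadjusted p under 0.05), while without KN046 mouse 2 there were 1173 and 923. The combination lowered 3 against the control, Efemp1, Eln and Emilin1, and raised 0, where 9.74% of all genes were lower and 1.37% higher. So 3 of 10 were lower where about 1 in 10 of all genes was, a small count. Over the 10 genes the median log2 fold change was -0.09 for SB525334, where all genes had 0.001, -0.18 for KN046, where all genes had -0.026, and -0.14 for the combination, where all genes had 0.013. These 3 comparisons share the control mice.

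Against single agents, the combination was lower than KN046 for 3 genes, Efemp1, Fbln5 and Emilin1, and higher for 0, beside 14.5% of all genes lower and 9.89% higher. Against SB525334 edgeR called 0 of 10, with 3.03% of all genes lower and 0.544% higher. There, 3 genes (Efemp1, Eln and Emilin1) had an unadjusted p under 0.05, and DESeq2 called 1, Efemp1. The interaction asks whether the effect of SB525334 differed with and without KN046. It was called for 0 of 10 genes in edgeR and in DESeq2, with 1 gene, Efemp1, at an unadjusted p under 0.05, while 2.55% of all genes had a lower and 1.73% a higher interaction. The median over the 10 genes was -0.20 against KN046, 0.06 against SB525334 and -0.04 for the interaction.

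**Figure D2:**
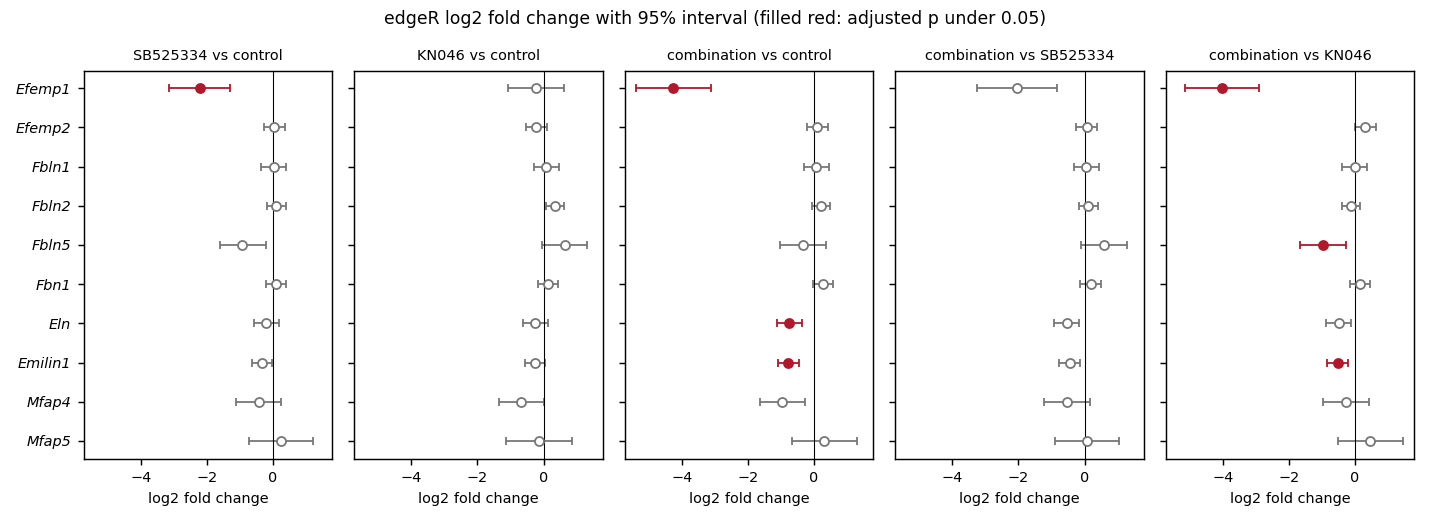
Log2 fold change (horizontal axis) of each of the 10 genes in 5 comparisons, with 95% intervals from the edgeR fit over 16 mice. Filled red points are called at an adjusted p under 0.05. The Efemp1 estimates of -2.22, -4.26 and -4.02 stand apart from the other 9 genes, whose estimates all lie between -0.97 and 0.64.

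The short fibulins behaved differently from each other. Efemp1 (ENSMUSG00000020467, chromosome 11 of GRCm39, 28803150 to 28876825, plus strand), encoding fibulin-3, was at 2.41, 2.37, 2.59 and 3.03 CPM in the control mice. SB525334 mice had 0.63, 0.76, 0.26 and 0.56 CPM of Efemp1. KN046 mice had 2.35, 2.67, 2.51 and 1.30 CPM, and combination mice 0.26, 0.22, 0.00 and 0.05. Both groups given SB525334 thus lay below every control and KN046 mouse. Efemp1 fell by 2.22 on the log2 scale with SB525334 (SE 0.436, adjusted p = 0.00158, edgeR), which is 4.66-fold lower. With the combination it fell by 4.26 against the control (SE 0.533, adjusted p = 9.13e-06), 19.1-fold lower, and by 4.02 against KN046 (SE 0.536, adjusted p = 2e-05). Those 3 calls held in every alternative fit and with each mouse left out. KN046 alone gave a log2 fold change of -0.23 (95% interval -1.08 to 0.61, adjusted p = 0.761).

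The step from SB525334 to the combination was not called for Efemp1, although the groups did not overlap: the log2 fold change was -2.04 (95% interval -3.24 to -0.84, adjusted p = 0.0606). Without SB525334 mouse 3 the adjusted p was 0.0312, without combination mouse 1 it was 0.0332, and DESeq2 gave 0.011. The step was called in 2 of 8 leave-outs and 1 of 5 other fits, with adjusted p up to 0.223. The interaction was -1.80 (95% interval -3.27 to -0.34, adjusted p = 0.184). Efemp1 rested on few reads, 50 to 58 counts per control mouse, 6 to 19 with SB525334, 25 to 55 with KN046 and 0 to 5 with the combination, so its level in the combination is close to the counting limit.

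Hepatocyte markers moved with Efemp1 between groups, and their part in the result was not tested. All 15 were called lower with SB525334 and with the combination, and 0 with KN046. The hepatocyte sums of mice 1 to 4 were 18420, 18840, 22520 and 22880 CPM in the control, 2230, 2606, 1814 and 779.6 with SB525334, 11220, 22040, 23460 and 16490 with KN046 and 129.9, 113.9, 128.3 and 150.2 in the combination. Within groups, control mice 3 and 4 and SB525334 mice 1 and 2 were the higher mice in both measures, as were KN046 mice 2 and 3. In these 3 groups ranks of neighbours differed between the measures, so that the lowest mouse was not the same in both. Each group holds only 4 mice, and the similar control mice may not be separate animals. In the combination, mouse 4 had the highest hepatocyte sum and an Efemp1 level of 0.05 CPM, below mice 1 and 2. The stellate cell markers Lrat and Reln fell as well. Lrat was at 1.99 to 2.93 CPM in control mice and at 0 in 2 combination mice, with 0.0943 CPM at most. Reln went from 7.96 to 15.6 CPM in control mice to between 0 and 0.518 in combination mice, with 1 mouse at 0. Their part was not tested either.

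**Figure D3:**
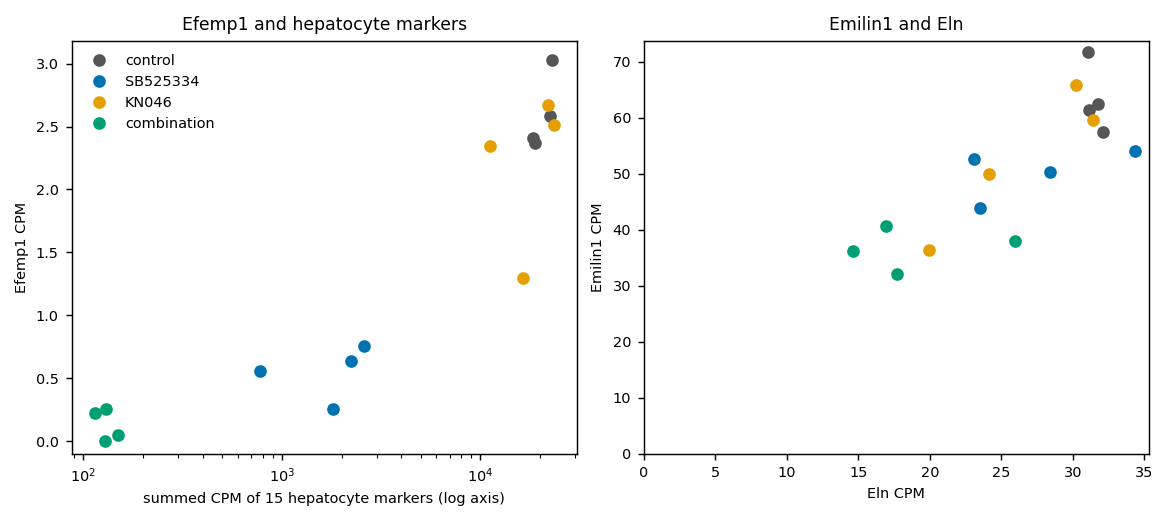
Left, Efemp1 CPM against the summed CPM of 15 hepatocyte markers on a log axis. Right, Emilin1 CPM against Eln CPM on linear axes. Each point is 1 of 16 mice, coloured by group. On the left the combination mice, at 113.9 to 150.2 CPM of hepatocyte markers, and the SB525334 mice, at 779.6 to 2606, hold the low Efemp1 values. On the right the combination mice lie at 14.6 to 25.9 CPM of Eln and 32.1 to 40.6 CPM of Emilin1.

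Fbln5 (ENSMUSG00000021186, chromosome 12, 101712556 to 101785429, minus strand) encodes fibulin-5, which tethers elastin to cells and microfibrils. It was at 2.89, 3.17, 4.82 and 4.76 CPM in control mice and at 1.76, 3.26, 1.46 and 1.68 CPM with SB525334. With KN046 the 4 values were 6.08, 8.41, 6.65 and 3.12 CPM, and with the combination 3.90, 2.81, 2.13 and 3.49 CPM. KN046 mice were thus the highest group and SB525334 mice the lowest, and each overlapped with the control through 1 mouse, KN046 mouse 4 and SB525334 mouse 2. The log2 fold change was -0.93 with SB525334 (95% interval -1.62 to -0.23, adjusted p = 0.101, edgeR), and -1.24 without SB525334 mouse 2 (adjusted p = 0.0251). This leave-out gave the only call among 8 leave-outs and 7 other fits, where adjusted p reached 0.292. With KN046 the log2 fold change was 0.64 (95% interval -0.04 to 1.31, adjusted p = 0.244). The combination was lower than KN046 by a log2 fold change of -0.97 (SE 0.325, adjusted p = 0.0383), in 14 of 16 pairs of mice. This call did not hold with only the 8 mice compared (adjusted p = 0.0702) or without KN046 mouse 1 (0.0703), 2 (0.0923) or 3 (0.0748), or combination mouse 2 (0.0915), 3 (0.112) or 4 (0.0612). Between the combination and the control the log2 fold change was -0.34 (95% interval -1.02 to 0.35, adjusted p = 0.593).

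Efemp2 (ENSMUSG00000024909, chromosome 19, 5523975 to 5532545, plus strand), whose product fibulin-4 is needed for elastin cross-linking, was at 63.6 to 90.4 CPM in control mice and 68.3 to 85.9 with SB525334. It was at 52.0 to 75.4 CPM with KN046 and 69.2 to 92.3 with the combination. All 4 groups overlapped, and no contrast was called. The log2 fold change was 0.04 with SB525334 (95% interval -0.27 to 0.35) and 0.10 with the combination (-0.21 to 0.41), so changes as large as that of Efemp1 lie outside these intervals. Its largest estimate, 0.31 for the combination against KN046, had an adjusted p of 0.127 (edgeR). Efemp1 and Efemp2 thus differed by more than 2 log2 units in their estimates for SB525334, a gap between genes that was not tested.

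The long fibulins Fbln1 and Fbln2 were not called in any comparison. Fbln1 (ENSMUSG00000006369, chromosome 15, 85090150 to 85170737, plus strand), a matrix and plasma protein, averaged 66.99 ± 10.4 CPM in the control, 67.72 ± 9.65 in SB525334 mice, 70.87 ± 18.8 in KN046 mice and 70.15 ± 13.8 in combination mice (SD, n = 4). Its 6 estimates were the closest to 0 of any of the 10 genes, between -0.03 and 0.08. Fbln2 (ENSMUSG00000064080, chromosome 6, 91189437 to 91249522, plus strand), which binds nidogen, perlecan and tropoelastin, was the most abundant gene of the set. It was at 1034, 1080, 1152 and 1166 CPM in the control and 1149, 1143, 1216 and 1240 with SB525334. KN046 mice had 1713, 1115, 1465 and 1303 CPM, and combination mice 1426, 1164, 1450 and 1101. Of the KN046 mice, 3 lay above every control mouse and mouse 2 lay among them. The log2 fold change with KN046 was 0.34 (95% interval 0.06 to 0.61, adjusted p = 0.139, edgeR), and 0.44 without KN046 mouse 2 (adjusted p = 0.0282). This leave-out gave the only call among 8 leave-outs and 7 other fits, where adjusted p reached 0.438.

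Among the microfibril genes, Fbn1 (ENSMUSG00000027204, chromosome 2, 125142514 to 125349913, minus strand), which encodes the main fibrillin of adult tissue, averaged 463.7 ± 84.0 CPM in the control. SB525334 mice averaged 494.6 ± 41.6 CPM of Fbn1, KN046 mice 510.1 ± 74.1 and combination mice 559.5 ± 77.0. The groups overlapped, and the log2 fold change with the combination was 0.27 (95% interval -0.03 to 0.57, adjusted p = 0.285, edgeR). Mfap4 (ENSMUSG00000042436, chromosome 11, 61376212 to 61379727, plus strand) encodes a fibrinogen-related glycoprotein that binds elastin and fibrillin. It was at 7.17, 8.28, 6.80 and 6.95 CPM in control mice and 5.11, 7.48, 2.58 and 6.42 with SB525334. KN046 mice had 3.41, 2.67, 5.25 and 6.96 CPM, and combination mice 3.13, 2.54, 4.48 and 4.81. Every combination mouse lay below every control mouse, yet the log2 fold change of -0.96 (95% interval -1.65 to -0.28) had an adjusted p of 0.0720 in edgeR. DESeq2 gave 0.029, and a fit of only the 8 mice compared gave 0.0155. These were the 2 calls among 7 other fits, and 0 of 8 leave-outs were called, with adjusted p up to 0.251. Mfap5 (ENSMUSG00000030116, chromosome 6, 122470878 to 122508875, plus strand), which encodes the microfibril glycoprotein MAGP-2, was the lowest gene of the set in the control. Its range over all 16 mice was 0.44 to 1.82 CPM, and its intervals were the widest among genes with no call, from -0.73 to 1.21 with SB525334 and -0.67 to 1.29 with the combination.

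Eln (ENSMUSG00000029675, chromosome 5, 134731445 to 134776322, minus strand), which encodes tropoelastin, was at 31.8, 31.1, 31.1 and 32.1 CPM in the control mice. SB525334 mice had 34.4, 23.1, 23.5 and 28.4 CPM, KN046 mice 19.9, 24.2, 30.2 and 31.4, and combination mice 25.9, 14.6, 16.9 and 17.7. The combination mice all lay below the control mice, and combination mouse 1 stood above the other 3. Eln fell by 0.745 on the log2 scale with the combination (SE 0.180, adjusted p = 0.00816, edgeR), 1.68-fold lower. With each pair of similar control mice counted as 1 sample the adjusted p was 0.0572. The control SD was 0.518 CPM, 1.64% of the mean. SB525334 alone gave -0.21 (95% interval -0.58 to 0.17, adjusted p = 0.621) and KN046 alone -0.25 (-0.63 to 0.12, adjusted p = 0.407).

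The combination against KN046 gave -0.49 for Eln (95% interval -0.87 to -0.11, adjusted p = 0.0548, edgeR). This value was below 0.05 without KN046 mouse 1 (0.0292) or 2 (0.0479), without combination mouse 1 (0.00631), and with DESeq2 (0.0351). Calls were made in 3 of 8 leave-outs and 3 of 6 other fits, with adjusted p up to 0.177. Against SB525334 the log2 fold change was -0.54 (95% interval -0.92 to -0.16, adjusted p = 0.158), and -0.75 without combination mouse 1 (adjusted p = 0.014). This leave-out gave the only call among 8 leave-outs and 6 other fits, where adjusted p reached 0.525. The interaction of -0.29 had a 95% interval of -0.82 to 0.25, so a fall beyond the sum of the single agents was not called.

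Emilin1 (ENSMUSG00000029163, chromosome 5, 31070717 to 31078622, plus strand) encodes an elastin-associated glycoprotein that also binds pro-TGF-β and hinders its processing. It was at 62.4, 71.8, 61.3 and 57.4 CPM in control mice and 54.0, 52.6, 43.9 and 50.3 with SB525334. KN046 mice had 36.3, 50.0, 65.8 and 59.6 CPM, and combination mice 38.0, 36.2, 40.6 and 32.1. The combination mice lay below all control and SB525334 mice, and KN046 mouse 1 fell among them. Emilin1 fell by 0.784 on the log2 scale with the combination against the control (SE 0.147, adjusted p = 7.84e-04, edgeR), 1.72-fold lower. The call held at an adjusted p under 0.05 in each alternative fit and leave-out, and the change is below the fold of 2 that the study's thresholds require. SB525334 alone gave -0.33 (95% interval -0.64 to -0.03, adjusted p = 0.211), with all 4 mice below the control, and KN046 alone -0.26 (-0.56 to 0.05, adjusted p = 0.297).

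Against KN046, Emilin1 in the combination fell by 0.527 (SE 0.146, adjusted p = 0.0157, edgeR), in 14 of 16 pairs of mice. This call was lost without KN046 mouse 3 (adjusted p = 0.0615), without combination mouse 4 (0.0585) and with only the 8 mice compared (0.0607). Against SB525334 the log2 fold change was -0.45 (95% interval -0.76 to -0.14, adjusted p = 0.138), with no overlap between the groups. The adjusted p was 0.0400 in a fit of only those 8 mice, the 1 call among 6 other fits. Of 8 leave-outs 0 were called, with adjusted p up to 0.422. The interaction was -0.19 (95% interval -0.63 to 0.24, adjusted p = 0.674).

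Among markers of the cells that make elastic fibers, 3 of 10 fibroblast markers were called lower with the combination against the control, Col1a2, Lum and Postn, and 0 higher, while 6 of the 10 had estimates above 0 and the list's median was 0.17. Of 8 stellate markers 6 were called lower (median -2.99), although their sum was 835.3 to 911.4 CPM in control and 904.3 to 924.8 in combination mice, most of it from Ecm1, which was not called. Further, of 7 smooth muscle markers tested 0 were called. The 8 portal and adventitial fibroblast markers had 0 lower and 1 higher, with sums of 718.3 to 891.8 CPM in control and 1038 to 1107 in combination mice. Smooth muscle markers summed to 157.1 to 187.0 CPM in control and 129.5 to 166.3 in combination mice. With SB525334 alone 0 fibroblast markers and 1 stellate marker were called lower. The part of these cells in the Eln and Emilin1 results was not tested.

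The 10 genes did not move as 1 block across the 16 mice. The closest pair was Eln and Emilin1, with a Pearson r of 0.83 between log2(CPM + 1) values, and 0.57 after each group's mean was subtracted. Emilin1 and Mfap4 followed at 0.70 (0.51 within groups). Efemp1 and Emilin1 had 0.69 over all mice and -0.10 within groups, so that likeness lay between groups. Efemp1 and Fbln5 had 0.67 and 0.84 within groups, and Efemp2 and Fbln1 0.57 and 0.70, while Fbln5 and Mfap5 went in opposite directions, at -0.64 and -0.73. These are descriptions over mice that share treatment and library depth, with no test.

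The genes outside the set with the most similar pattern over the 16 mice also differed from member to member. They were picked for the highest r among all tested genes, so high values follow from the choice, and none was tested. For Efemp1 they were Slc39a4 (r = 0.982, 0.690 within groups), a zinc transporter, and Gpd1 (0.979 and 0.658), a glycerol-3-phosphate dehydrogenase. For Emilin1 they were Pde1a (0.932 and 0.820) and Kif26b (0.905 and 0.742), and for Eln Mmp23 (0.888 and 0.759) and again Pde1a (0.869 and 0.661). Mfap4 was most like Serpine2 (0.875 and 0.808) and the collagen gene Col1a2 (0.864 and 0.785). Fbln5 was most like Clca3a1 (0.856) and Slc25a20 (0.855), Fbln2 like Fam117b (0.900) and Klhl7 (0.896), and Fbn1 like Chd5 (0.837) and Txk (0.807). Efemp2 was most like Dpcd (0.931) and Nudc (0.925), Fbln1 like Spindoc (0.765) and Csrp2 (0.751), and Mfap5 like Atp6v0b (0.778) and Gpatch3 (0.756).

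Of 41 further genes of the elastic fiber pathway, in 5 lists, 37 were tested, and Adamts17, Mmrn1, Emilin3 and Acan did not pass the filter. With SB525334 4 were called lower and 0 higher, with KN046 2 lower and 1 higher, and with the combination 7 lower and 0 higher against the control. Against KN046 the combination had 8 lower and 2 higher, and against SB525334 1 and 1, and the interaction was lower for 2 and higher for 2. The share lower with SB525334, 10.8%, was near the 9.22% of all genes. With KN046 5.41% were lower, beside 2.40% of all genes. In the combination 18.9% were lower than in the control, beside 9.74%, and 21.6% lower than with KN046, beside 14.5%. Higher than with KN046 were 5.41%, beside 9.89% of all genes. Against SB525334 the 1 lower gene of 37 stood beside 3.03% of all genes, and the 1 higher gene beside 0.544%. The interaction was lower for 5.41% and higher for 5.41%, beside 2.55% and 1.73%. Against the control 0 of 37 were higher with SB525334 and with the combination, beside 0.394% and 1.37%, and 1 with KN046, beside 1.60%. No test of these shares was made. The median log2 fold change of the 37 genes was -0.09, 0.22 and -0.05 in the comparisons with the control, and -0.30 against KN046.

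Of 5 cross-linking enzymes, Lox, the lysyl oxidase that oxidizes elastin and collagen, fell, and Loxl1, Loxl2, Loxl3 and Loxl4 were not called in any comparison. Lox was at 32.0 to 44.7 CPM in control and 10.9 to 15.2 in combination mice, a log2 fold change of -1.46 (SE 0.354, adjusted p = 0.00830, edgeR). Against KN046 it was -1.31 (SE 0.353, adjusted p = 0.0135). Both calls held with each mouse left out. Loxl1 was at 53.8 to 64.7 CPM in control and 61.7 to 84.9 in combination mice.

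Of 7 tested relatives of the fibrillins and fibulins, Fbn2, a fibrillin best known from development, fell with the combination from 1.01 to 3.50 CPM in control mice to between 0.283 and 0.668 (log2 fold change -2.31, SE 0.572, adjusted p = 0.00990, edgeR). Mmrn2, an endothelial glycoprotein of the EMILIN family, fell by 1.11 with SB525334 (adjusted p = 0.0116) and by 0.85 in the combination against KN046 (adjusted p = 0.0334). The first Mmrn2 call was lost without control mouse 1 (0.0592) or 2 (0.0549), and the second without KN046 mouse 3 (0.0679) or 4 (0.0659) or combination mouse 2 (0.0788), 3 (0.0795) or 4 (0.0675). Endothelial markers moved with Mmrn2, with 5 of 7 called lower with SB525334 and 3 of 7 with the combination, and their part was not tested. Mfap2, which encodes the microfibril glycoprotein MAGP-1, was lower in the combination than with KN046 (log2 fold change -1.48, SE 0.401, adjusted p = 0.0134), at 0.276 to 0.990 against 1.40 to 2.68 CPM.

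Of the 8 tested genes of latent TGF-β binding and microfibril assembly, all had estimates above 0 with KN046 (0.22 to 0.62) and below 0 for the combination against KN046 (-2.03 to -0.26). Of all 13968 genes, 6528 were above 0 with KN046 and 6970 below 0 for the combination against KN046. The direction was not particular to this list. Of the 7 tested proteoglycans and fibulin ligands, 6 were above 0 with KN046 and 6 below 0 for the combination against it. Most of the 8 genes were not called in these comparisons, which share the KN046 mice. Adamtsl2, whose product binds fibrillin and a latent TGF-β binding protein, was at 10.8 to 13.8 CPM in control, 7.36 to 12.0 with SB525334, 13.6 to 17.2 with KN046 and 2.26 to 5.40 in combination mice. Every combination mouse lay below every other mouse. Adamtsl2 fell by 1.66 against the control (SE 0.256, adjusted p = 9.91e-05, edgeR), by 1.24 against SB525334 (SE 0.255, adjusted p = 0.00606) and by 2.03 against KN046 (SE 0.257, adjusted p = 1.15e-05), and all 3 calls held with each mouse left out. Its interaction of -1.60 (SE 0.351, adjusted p = 0.0126) was also called, but not with each pair of similar control mice counted as 1 sample (0.0659). The Adamtsl2 call against SB525334 was not made with only the 8 mice compared (0.0643). Ltbp4, the latent TGF-β binding protein that works with fibulin-5 in elastic fiber assembly, was at 891 to 973 CPM in control and 1050 to 1780 in KN046 mice. It rose with KN046 by 0.625 (SE 0.138, adjusted p = 0.0267), and its interaction was -0.75 (adjusted p = 0.0352). The rise kept its direction but lost its call without any 1 control mouse (adjusted p = 0.0531 to 0.0696), without KN046 mouse 1 (0.0874) or 3 (0.0683), and with the similar control mice merged (0.221). A fit of only the 8 mice compared did not call the rise (0.118). The interaction was called in 6 of 16 leave-outs, and not with the similar control mice merged (0.137). Against KN046 the combination was lower for Ltbp4 by a log2 fold change of -0.44 (adjusted p = 0.0274), called in 3 of 8 leave-outs. With only those 8 mice it was not called (0.102).

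Of 7 tested proteoglycans and fibulin ligands, Nid1, the basement membrane nidogen that binds Fbln1 and Fbln2 proteins, fell by 1.10 with SB525334 (SE 0.220, adjusted p = 0.00185, edgeR), from 48.3 to 79.2 CPM in control mice to between 24.6 and 38.2. In the combination it fell by 0.817 against the control (adjusted p = 0.0178) and by 1.08 against KN046 (adjusted p = 0.00167). The call against the control was lost without control mouse 1 (0.0715) or 2 (0.0738) or combination mouse 2 (0.0822) or 4 (0.0575). It was also lost with the similar control mice merged (0.0657). Vcan, the large proteoglycan versican that binds fibulins and fibrillin, was lower in the combination than with KN046 (log2 fold change -0.50, adjusted p = 0.0208), and not without KN046 mouse 1 (0.0947), or combination mouse 2 (0.0717), 3 (0.0725) or 4 (0.0667).

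Of 10 elastin-degrading enzymes, the neutrophil proteases Elane and Prtn3 fell with every treatment. Elane, neutrophil elastase, had 150 to 211 counts in each control mouse, 0 to 1 with SB525334 and 1 to 7 with KN046, and the 4 combination mice had 103 counts in all, of which mouse 4 held 94. Over the groups, the control level of Elane was 272-fold that with SB525334 (exact 95% counting interval 92.8 to 1320). The log2 fold change of Elane was -5.35 under KN046 (adjusted p = 0.0151, edgeR) and -2.79 in the combination (adjusted p = 0.0249), and without combination mouse 4 the latter was -5.70 (1.41e-06). The KN046 call of Elane was lost without KN046 mouse 1 (0.0573) or 3 (0.05), and the combination call without control mouse 1 (0.0552) or 2 (0.0518) or combination mouse 1 (0.0549) or 2 (0.0686). Elane in the combination was 41.7-fold the level with SB525334 (exact 95% counting interval 13.9 to 206, adjusted p = 0.0278), a call lost without any 1 of the SB525334 mice (adjusted p = 0.0660 to 0.109) and without combination mouse 4 (0.476), when 9 counts gave 5.03-fold (1.25 to 28.9). Its interaction was called (adjusted p = 5.99e-04, and 7.79e-04 without that mouse), with no size given because the SB525334 group holds 3 counts.

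Prtn3, proteinase 3, had 286 to 331 counts in each control mouse, 3 to 24 with SB525334, 2 to 37 with KN046 and 167 over the combination mice, of which mouse 4 held 149. Its log2 fold change was -5.04 with SB525334 (adjusted p = 0.00108, edgeR), -3.67 under KN046 (0.0323) and -2.87 in the combination (0.0287). Without combination mouse 4 the last was -5.49 (2.07e-05). The KN046 call of Prtn3 was lost without control mouse 1 (0.0600), 2 (0.0597), 3 (0.0696) or 4 (0.0740) or KN046 mouse 1 (0.0960) or 3 (0.0704). The combination call was lost without control mouse 1 (0.0511), 2 (0.0546) or 4 (0.0552) or combination mouse 1 (0.0510), 2 (0.0953) or 3 (0.0854). The Prtn3 interaction of 5.83 (adjusted p = 0.0121) was 3.20 and not called (0.103) without combination mouse 4. With the similar control mice merged, the KN046 and combination calls of Elane and Prtn3 were lost (adjusted p = 0.106 to 0.212).

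Mmp7, the epithelial matrix metalloproteinase matrilysin, had 96 counts over the control mice (3 to 43 per mouse) and 19 over the SB525334 mice (2 to 12). It had 94 over the KN046 mice (9 to 38) and 0 over the combination mice. The bounds that follow use group totals, and the lowest control mouse held only 3 counts. Against a floor of 3 counts over the group it was at least 29.8-fold lower in the combination than in the control (adjusted p = 0.00173, edgeR) and at least 31.6-fold lower than with KN046 (adjusted p = 0.00141). Krt8 and Krt18 fell alongside it, as given above, and the part of the cells that make them was not tested. Macrophage elastase Mmp12 and cathepsin S Ctss were higher in the combination than with KN046, by 1.06 (adjusted p = 0.0481) and 0.551 (adjusted p = 0.0407). Mmp12 lost its call without any 1 KN046 mouse (adjusted p = 0.0605 to 0.134) and without combination mouse 2 (0.0860) or 4 (0.216). Ctss lost its call without KN046 mouse 1 (0.109), 3 (0.0994) or 4 (0.0599) or combination mouse 1 (0.0516) or 4 (0.138).

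**Figure D4:**
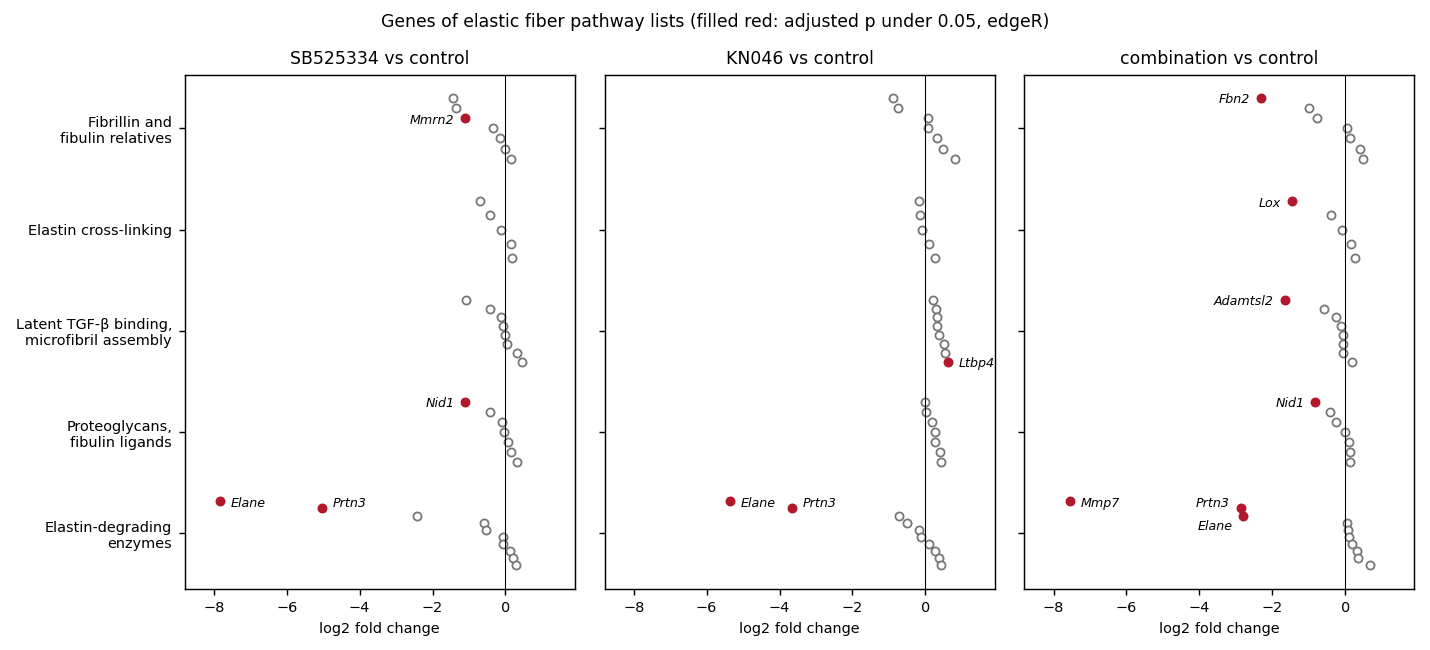
Log2 fold change (horizontal axis, edgeR) against the control of the 37 tested genes of 5 elastic fiber pathway lists (rows), 1 panel a treatment. Each point is a gene, and filled red points, with names, are called at an adjusted p under 0.05. Elane and Mmp7 are plotted at fitted values although 1 of the groups holds 3 counts or fewer, so their places at -7.83 and -7.54 are not bounds. With KN046 the latent TGF-β binding row lies wholly right of 0, as do 6 of the 7 genes of the proteoglycan row. In the combination panel Lox, Adamtsl2 and Fbn2 lie left of their rows.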

How the data were processed

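Per the labels and the methods of the study, total RNA from tumor tissue of 16 mice was sequenced on an Illumina instrument. Per the submitters' processing notes, reads were trimmed with Cutadapt 2.7, aligned to GRCm39 with HISAT2 2.2.1 and assigned to genes with HTSeq 2.0.4, and normalized with DESeq2 1.38.3. The strand setting and the treatment of reads with several alignments are not given in the sources used here, so overlapping genes are uncertain. The authors deposited raw counts per gene, which were used here, and normalized values, which were not. Ensembl identifiers were matched to GENCODE (GRCm39), which held 21770 of 21959.

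Counts were analysed in R 4.3.3 with edgeR 4.0.16: filterByExpr with a minimum count of 10, TMM scaling, and a quasi-likelihood fit of 4 group means over 16 mice (biological coefficient of variation 20.1%), with 6 contrasts adjusted over 13968 genes. SE and 95% intervals come from that fit. RPKM divides CPM by the summed exon length. The steps were tested on simulated data. DESeq2 1.42.0, other scalings, no filter, the compared mice alone, a replicate block, merged control pairs, the study's thresholds (p under 0.05, fold over 2) and leaving out each mouse were alternatives. These were read out for the pathway genes after the data had been seen. Intervals and floors on counts cover counting error only.

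The genes named were all 10 members, each pathway gene called in at least 1 contrast, and the 2 genes whose log2(CPM + 1) correlated best with each member. Loxl1 to Loxl4 and single markers were named beside results after their values were seen. The members and the lists were chosen with earlier results of these data known. Replicate numbers were not taken to pair the mice (24 pairs of the same number, r -0.37 to 0.407, 7 over 0.1). Mice of different numbers were not compared in this way, so pairing was not tested.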

Additional observations from a re-analysis of the deposited data

Results flagged for a closer look

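Of 40 sets of 4 mice examined, 10 genes in 4 groups, 1 held a mouse far from the others by Dixon's criterion, where chance alone would give about 2. SB525334 mouse 2 had an Fbln5 level of 3.26 CPM, and the other 3 SB525334 mice had 1.46 to 1.76 CPM. Without this mouse Fbln5 was called lower with SB525334 than in the control (log2 fold change -1.24, adjusted p = 0.0251, edgeR), and with it the value was -0.93 (adjusted p = 0.101).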

How the results depend on the processing

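The number of the 10 genes called depended on the threshold and the mice fitted, and the cause of these shifts was not tested. DESeq2 with the study's thresholds gave 1 gene for the combination against the control and 1 against KN046 (3 each in the report), and 1 against SB525334 and 1 for the interaction (0 each). A fit of only the mice compared gave 1 against KN046 and 1 against SB525334, where DESeq2 also gave 1. The gene called against SB525334 was Emilin1 in the fit of only the mice compared and Efemp1 in DESeq2. With each mouse left out, the counts ran from 1 to 2 with SB525334, 0 to 1 with KN046, 3 to 3 for the combination against the control, 0 to 2 against SB525334, 1 to 4 against KN046 and 0 to 0 for the interaction. Efemp1 with SB525334, with the combination and against KN046, and Emilin1 with the combination, kept an adjusted p under 0.05 in every fit and leave-out. Of these, Emilin1 did not pass the study's fold of 2. Over all genes, calls with KN046 (335 lower, 224 higher) were 662 and 588 in DESeq2, 63 and 12 with only the mice compared, 0 and 0 with merged control pairs, and 11 and 10 to 1173 and 923 with a mouse left out. With only the mice compared, the combination had 237 and 57 against SB525334 (423 and 76) and 1347 and 508 against KN046 (2025 and 1381). The interaction (356 and 242) had 553 and 404 in DESeq2, 205 and 93 with merged control pairs, 482 and 462 without KN046 mouse 2 and 249 and 128 without combination mouse 4. The largest shift of the median over all genes between scalings was 0.024 (log2).

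The replicate block, with numbers not taken to pair the mice, gave 0.01 for Fbln1 against KN046 (also 0.01 with upper-quartile scaling). It gave 0.05 for the Fbln5 interaction, and both were of the opposite sign to the report. Under the block Fbln5 against KN046 had an adjusted p of 0.0576 and Eln 0.0438. Among all values of the 10 genes under the alternatives, 867 kept their side, 15 gained a call, 12 lost one and 55 changed sign, nearly all of the last with 1 mouse left out and close to 0. Those leave-out ranges were -0.03 to 0.14 and -0.01 to 0.13 for Efemp2 with SB525334 and for the combination against it, and for Fbln1 -0.05 to 0.11 with SB525334, -0.11 to 0.20 with KN046, -0.04 to 0.19 with the combination, -0.06 to 0.16 against SB525334, -0.14 to 0.19 against KN046 and -0.16 to 0.16 for the interaction. Against KN046 they were -0.22 to 0.00 for Fbln2 and -0.48 to 0.00 for Mfap4. The interaction ranged from -0.26 to 0.27 for Fbln5, -0.06 to 0.13 for Fbn1, -0.08 to 0.43 for Mfap4 and -0.14 to 0.56 for Mfap5, and Mfap5 from -0.48 to 0.21 with KN046 and -0.12 to 0.26 against SB525334. None of these values was called. Of 454 rereadings of called pathway genes, 363 kept the call and 91 lost it. With 50 to 58 Efemp1 counts per control mouse and 0 to 5 in the combination, depth limits its fold.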
